A study of Mus musculus with 9 samples.

Results

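Expression of 9 genes of the pigment cell lineage was followed through the resting hair follicle: Dct, Tyrp1, Pmel, Mitf and Tyr, which serve melanin formation, and Kit, Kitl, Edn3 and Ednrb, the ligands and receptors that act on melanocytes. They were chosen by symbol, as genes with probe sets annotated to that symbol alone, and each was represented by its brightest probe set. They made up 9 of the 12393 named genes on the array and had 20 probe sets among them. Expression was measured on 9 arrays of mouse back skin cells sorted by flow cytometry, 3 arrays for each of 3 populations, with 1 array on each of postnatal days 43, 56 and 69 (early, mid and late telogen, the resting phase of the hair cycle). All mice were virgin CD1 females, an albino outbred stock, weaned on day 21, and carried the Lef1RFP and K14H2BGFP reporters, so that no group lacked either transgene. Bulge cells were RFP-, GFP+, CD34+ and low for P-cadherin. Hair germ cells were RFP-, GFP+, CD34- and high for P-cadherin. Dermal papilla cells were RFP+ and GFP-, and were depleted of cells with CD45, CD117, integrin alpha 7 and, per the sample titles, CD34. CD117 is the protein made from Kit, so Kit in dermal papilla was under a sort gate and its level there is no finding. Melanocytes depend on this receptor, so the gate also bears on the other melanocyte genes in dermal papilla. Its effect on their values was not tested. K14H2BGFP is driven by a keratin 14 promoter and marks epithelial cells, and neither epithelial gate excluded CD117+ cells. The labels do not say whether an array held pooled mice or whether a day's populations were sorted from shared mice. The 3 days stand in for replicates of a population, so each SD below holds change with age as well as sampling error.

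Melanin is made in melanocytes inside melanosomes, on fibrils of the PMEL protein, by tyrosinase (Tyr) and the related enzymes TYRP1 and DCT. Transcription of these genes is driven by MITF, a helix-loop-helix factor that binds E-boxes, with PAX3 and SOX10 acting upstream of it. In the mouse follicle, melanocyte stem cells rest in the bulge and hair germ region during telogen and supply the pigment cells of the next hair shaft. Their survival and migration depend on KIT, a receptor tyrosine kinase whose ligand is KIT ligand (Kitl), and on the G protein-coupled receptor EDNRB, whose ligand is endothelin 3 (Edn3). Dct is among the first pigment genes to be transcribed in the lineage, and Tyr among the last. Albino mice such as CD1 lack working tyrosinase and still have melanocytes.

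The 9 letters TCATGTGCT are the core of the M-box, a site bound by MITF. The upstream sequences of the 3 melanin enzyme genes are shown because they hold these letters. They are reference sequence from RefSeq (GRCm38.p6), not read from these mice, and are printed 5' to 3' on the strand of the gene, ending just before the start site for Dct and Tyr. Capitals mark TCATGTGCT and any other CATGTG, on either strand. Dct lies on the minus strand at chr14:118052247-118052496, Tyr on the minus strand at chr7:87493513-87493762, and the Tyrp1 stretch, cut to the bases around the match, on the plus strand at chr4:80834156-80834184.
Dct: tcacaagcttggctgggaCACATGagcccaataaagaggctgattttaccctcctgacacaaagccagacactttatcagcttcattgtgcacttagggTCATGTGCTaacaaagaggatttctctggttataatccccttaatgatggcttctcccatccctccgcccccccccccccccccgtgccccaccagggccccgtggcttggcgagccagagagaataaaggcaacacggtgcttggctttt
Tyrp1: ggggagggagTCATGTGCTgcctagtagt
Tyr: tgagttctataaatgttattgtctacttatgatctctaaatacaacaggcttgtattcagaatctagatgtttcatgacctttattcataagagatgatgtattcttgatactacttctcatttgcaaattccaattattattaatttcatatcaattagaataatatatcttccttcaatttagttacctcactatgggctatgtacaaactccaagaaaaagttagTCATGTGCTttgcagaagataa
The 9 letters began 151 bases before the start site in Dct, 47 in Tyrp1 and 22 in Tyr, each time on the strand of the gene. Dct had a further CATGTG, on the other strand, 232 bases before the start. Of all 32851 promoter windows in the table (250 bases before to 50 after a start), 0.408% held TCATGTGCT on either strand, 3.77% the shorter TCATGTG and 14.2% CATGTG, which lies inside the longer 2. The E-box CACGTG was in 7.15% of all windows. The 8 members found in the table had 11 windows, and those of Mitf, Kit, Kitl, Edn3 and Ednrb held neither CATGTG nor CACGTG. Pmel had no promoter window and so was not searched. A match describes letters in a window and is not evidence of binding in these cells.

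Signals are the deposited MAS5 intensities, and log2 values below are log2(signal + 16), so that folds of dim genes are understated. The median signal of an array, given here as a mark of dimness, ran from 39.9 to 56.3. A gene entered the test if it was brighter than the array median on at least 3 of the 9 arrays, which held for 7786 genes and for 6 members: Dct, Tyrp1, Pmel, Mitf, Kitl and Ednrb. Tyr, Kit and Edn3 did not pass. A tested gene is said to be called, or higher or lower in a count, where the limma adjusted p was below 0.05. Tyrp1 passed through the 3 hair germ arrays alone, so it had to be higher there, and Pmel through those and 1 bulge array. Ednrb passed through 2 dermal papilla arrays and 1 hair germ array, so it had to be above bulge. Among the genes of the gates, Cd34 was high in bulge alone (3098 to 3464), Krt14 in both epithelial populations and Lef1 in dermal papilla, whereas Cdh3 (P-cadherin) was below the median of every array and checks nothing. Keratinocyte markers lay above the array median for 7 of 7 genes in all bulge and hair germ arrays, and for 2 to 5 in dermal papilla, where 9 to 10 of 10 dermal papilla markers did so. The ratio of the 3' to the 5' control probe sets of GAPDH, in RNA amplified in 2 rounds, is higher with more loss of 5' signal. It was 8.34, 2.97 and 7.90 for the hair germ arrays of days 43, 56 and 69, 6.62, 4.13 and 3.77 for dermal papilla, and 3.96 to 5.09 for bulge. For actin the ratio was 17.7, 3.79 and 16.3 for hair germ, 13.5, 4.32 and 3.12 for dermal papilla, and 5.01 to 6.60 for bulge. With signals not rescaled, the median gene was 0.11 log2 units higher in hair germ than in bulge, and this became -0.05 after quantile normalization and -0.10 after centring on array medians.

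By the filtered limma test 4 members were higher and 1 lower in hair germ than in bulge, beside 12.2% and 7.54% of all genes tested. These shares are given for scale, since Tyrp1 and Pmel entered the test by being bright in hair germ, and Ednrb by being bright outside bulge. In dermal papilla against bulge 1 member was higher (Ednrb) and 1 lower (Mitf), beside 16% and 19.0% of all genes. In dermal papilla against hair germ 1 was higher (Ednrb) and 4 lower (Dct, Tyrp1, Pmel and Kitl), beside 15.4% and 23.8%. The 3 comparisons share arrays. Over all genes 952 were higher and 587 lower in hair germ than in bulge, against 686 and 797 after quantile normalization and 613 and 939 after median centring, and 1202 were higher and 1852 lower in dermal papilla than in hair germ, against 1527 and 1498, and 1446 and 1481. The called member differences kept their direction and their call under both scalings.

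**Figure D1:**
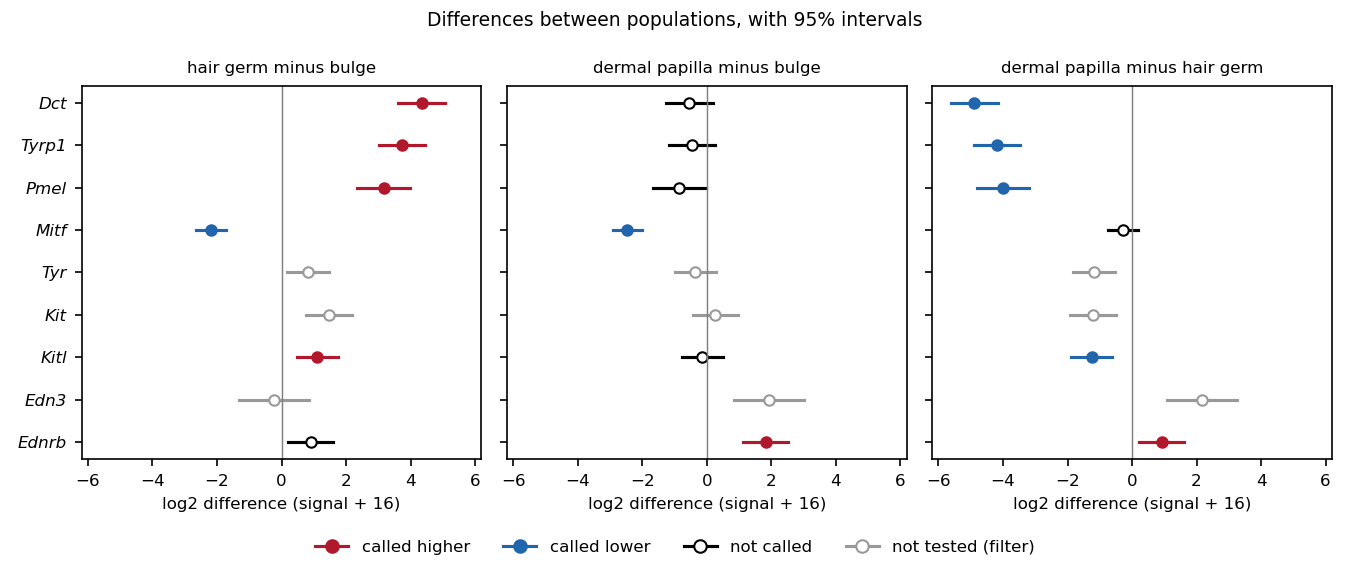
Log2 differences of the 9 members, in 1 panel each for hair germ minus bulge, dermal papilla minus bulge and dermal papilla minus hair germ, with bars for the 95% interval, filled points for genes called by limma and grey open points for genes that did not pass the filter. In the first panel Dct (4.34), Tyrp1 (3.73) and Pmel (3.16) lie far to the right and Mitf (-2.18) to the left.

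The melanin enzyme genes Dct and Tyrp1 and the melanosome fibril gene Pmel were high in hair germ and low in both other populations, whereas Tyr was dim in all 3. The dermal papilla values of these genes were read after the sort had removed CD117+ cells. Dct, which encodes dopachrome tautomerase, had hair germ signals of 1369, 2519 and 1059.9, given here and below in the order of days 43, 56 and 69. In bulge it was at 68.8, 45.8 and 70.5, and in dermal papilla at 57.2, 42.8 and 17.9. Every hair germ array was therefore far above all 6 others, and the bulge arrays stayed above their own medians. On the log2 scale Dct averaged 10.60 ± 0.64 (SD, n = 3) in hair germ, 6.26 ± 0.27 in bulge and 5.72 ± 0.57 in dermal papilla. The difference from bulge was 4.34 ± 0.33 (SE; 95% interval 3.61 to 5.07), 20.3-fold (limma adjusted p = 2.46e-05), and that from dermal papilla was 29.6-fold (limma adjusted p = 9e-07). Dermal papilla minus bulge was -0.54 and was not called (limma adjusted p = 0.234).

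Tyrp1, the enzyme related to tyrosinase that acts late in eumelanin synthesis, had hair germ signals of 319.9, 882 and 263. Bulge arrays read 26.2, 19.2 and 8.37, and dermal papilla arrays 10.5, 14.7 and 1.29, all 6 below the array median. The groups did not overlap between hair germ and either other population. Hair germ exceeded bulge by 3.73 ± 0.32 (SE; 95% interval 3.01 to 4.44) log2 units, 13.2-fold (limma adjusted p = 4.79e-05), and dermal papilla by 18.1-fold (limma adjusted p = 2.37e-06).

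Pmel, which encodes the amyloid fibril on which melanin is laid down, followed the same order. Its signals were 447, 806 and 265 in hair germ, 34.0, 30.9 and 47.3 in bulge, and 3.20, 35.3 and 9.94 in dermal papilla. The lowest hair germ array was above the highest array of either other population. The hair germ excess over bulge was 8.96-fold, or 3.16 ± 0.37 (SE) on the log2 scale (limma adjusted p = 0.000216), and 16.1-fold over dermal papilla (limma adjusted p = 8.09e-06). The difference between dermal papilla and bulge was -0.85 and was not called (limma adjusted p = 0.0998), although it was without the bulge array of day 56 (-1.33, limma adjusted p = 0.0169).

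Tyr itself, whose product starts melanin synthesis, was dim throughout. Hair germ signals were 32.5, 30.2 and 83.9, bulge signals 20.9, 16.1 and 18.6, and dermal papilla signals 11.2, 8.10 and 13.9. The 3 populations did not overlap, with hair germ highest and dermal papilla lowest, but only the hair germ array of day 69 was above its median. In a fit to all 12393 genes without the filter, hair germ minus bulge was 0.82 and was not called (limma adjusted p = 0.104), and dermal papilla minus hair germ was -1.17 and was called (limma adjusted p = 0.0128). In that fit 11.4% of all genes were called for hair germ against bulge, 25.6% for dermal papilla against hair germ and 22.1% for dermal papilla against bulge.

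**Figure D2:**
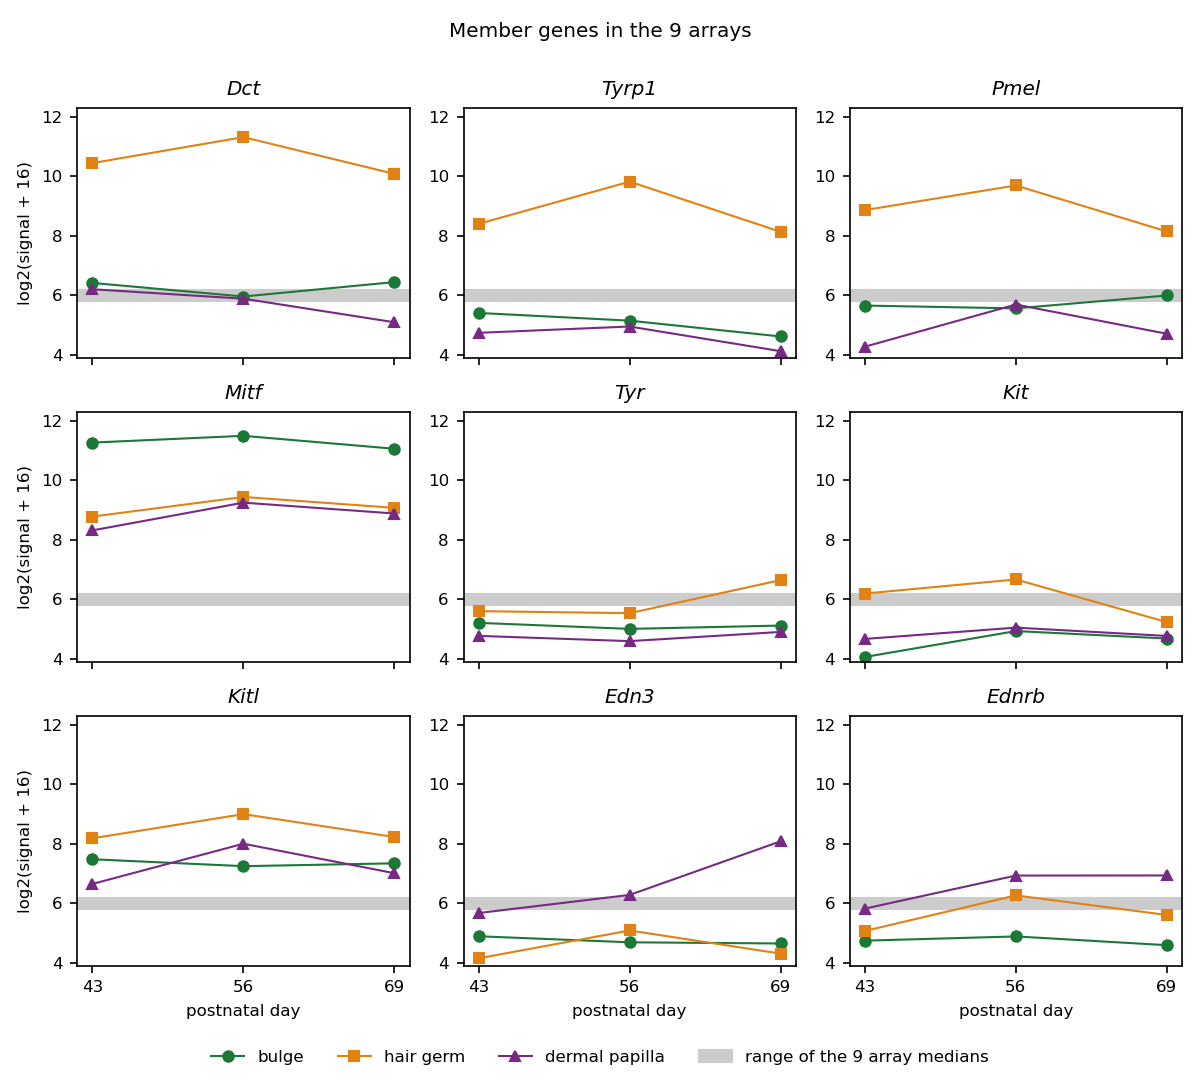
Log2(signal + 16) of the 9 members on postnatal days 43, 56 and 69, 1 panel per gene, with 1 point per array, lines joining the days of a population and a grey band over the range of the 9 array medians. Dct, Tyrp1 and Pmel stand apart in hair germ (means 10.60, 8.78 and 8.89), Mitf in bulge (11.27), and Edn3 lies above the band in dermal papilla on days 56 and 69 only.

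These are bulk samples, in which more cells of a type and more RNA per cell cannot be told apart. The array held 9 melanocyte markers: Dct, Tyrp1, Pmel, Tyr, Slc45a2, Oca2, Sox10, Gpr143 and Mlph. Of these, 3 to 4 were above the array median in hair germ, 1 to 2 in bulge and 0 to 2 in dermal papilla, sorted without CD117+ cells. Their summed signal was 1808 to 4415 in hair germ, 170 to 227 in bulge and 111 to 210.3 in dermal papilla. Most of the hair germ sum was Dct, Tyrp1 and Pmel: the other 6 markers summed to 135, 208 and 220.2 in hair germ, 98.3, 74.4 and 101 in bulge, and 139, 102 and 82.2 in dermal papilla, so that hair germ and dermal papilla overlapped. The transporter genes Slc45a2 and Oca2, the melanosomal receptor gene Gpr143 and the transport adaptor gene Mlph were below the array median in all 3 hair germ arrays. Among 20 further melanosome and pigment genes on the array, 12 were tested. With bulge as the reference, limma called 2 higher and 0 lower in hair germ, beside 12.2% and 7.54% of all genes tested. The 2 higher were Rab32 (1.82, adjusted p = 0.00149), which directs enzymes to melanosomes, and Myo5a (1.00, adjusted p = 0.0299), the motor that carries melanosomes. The median over the 12 was -0.10, beside 0.11 over all genes tested. In dermal papilla, 3 were higher and 3 lower than in bulge, led by the melanosome trafficking gene Rab38 (-2.44) and Gpnmb (-1.60), which encodes a relative of PMEL, and 1 was higher and 3 lower than in hair germ, again led by Rab38 (-2.91).

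Mitf, the regulator of the melanin genes, was highest in bulge. Its signals were 2445, 2864 and 2115 in bulge, 423, 678 and 522 in hair germ, and 302, 591 and 455 in dermal papilla. All 9 arrays were above their medians, the bulge arrays were the 3 highest, and hair germ and dermal papilla overlapped. Bulge averaged 11.27 ± 0.22 (SD, n = 3), hair germ 9.10 ± 0.33 and dermal papilla 8.81 ± 0.47 log2 units. The log2 difference of hair germ minus bulge was -2.18 ± 0.21 (SE; 95% interval -2.64 to -1.71), with bulge 4.52-fold above it (limma adjusted p = 8.39e-05), and bulge was 5.49-fold above dermal papilla (limma adjusted p = 4.59e-06). Hair germ and dermal papilla could not be separated (-0.28, 95% interval -0.75 to 0.18, limma adjusted p = 0.319). Mitf has several promoters, some of them used outside melanocytes, and the probe set does not tell which was read. The second Mitf probe set gave the same direction at a smaller size, -0.82 for hair germ minus bulge and -0.67 for dermal papilla minus bulge.

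Of the other melanocyte transcription factors, 13 of 14 were on the array and 7 were tested. In hair germ against bulge 1 was higher and 1 lower, beside 12.2% and 7.54% of all genes tested. Pax3, a paired-box factor of the neural crest and melanocyte lineage, had hair germ signals of 152, 350.2 and 117, against 7.85 to 16.9 in bulge and 7.36 to 22.0 in dermal papilla. Hair germ minus bulge was 2.88 ± 0.38 (SE) log2 units (limma adjusted p = 0.000549) and dermal papilla minus hair germ -2.71 (limma adjusted p = 0.000215), and like Tyrp1 it passed the filter only through the hair germ arrays. Sox9, an epithelial stem cell factor also found in melanocytes, had a hair germ minus bulge difference of -2.33 and passed the test. Sox10, the crest factor, read 31.6, 55.0 and 45.4 in hair germ and was above the median on day 56 only. In dermal papilla against bulge, 3 of the 7 were higher and 2 lower, led by Zeb2 (5.88), Sox9 (-5.07) and Tfap2b (-4.74), and in dermal papilla against hair germ 3 and 3, led by Zeb2 (4.83) and Tfap2b (-3.82). The median of the 7 for hair germ minus bulge was -0.15.

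Kit, the receptor of KIT ligand, was dim and highest in hair germ. Hair germ signals, in order of day, were 57.0, 85.4 and 21.5, bulge signals 0.654, 14.5 and 9.61, and dermal papilla signals 9.37, 17.0 and 11.2. Every hair germ array exceeded the 6 others, yet that of day 69 was below its median. In the fit without the filter Kit was 2.78-fold higher in hair germ than in bulge (limma adjusted p = 0.015) and lower in dermal papilla, where the sort removed CD117+ cells, than in hair germ (-1.20, limma adjusted p = 0.0184). The second Kit probe set, below the median of every array, gave -0.32 for hair germ minus bulge, so that the 2 probe sets disagree in direction.

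Kitl, the ligand, was above the median on all 9 arrays. It read 276, 496 and 285 in hair germ, 163, 136 and 147 in bulge, and 84.7, 241 and 113 in dermal papilla. All hair germ arrays were above all others, and dermal papilla spanned the bulge values. Hair germ exceeded bulge by 1.11 ± 0.29 (SE; 95% interval 0.48 to 1.74) log2 units, 2.16-fold (limma adjusted p = 0.0203), and dermal papilla by 2.38-fold (limma adjusted p = 0.00514). Dermal papilla minus bulge was -0.14 with a 95% interval of -0.77 to 0.49 (limma adjusted p = 0.755). The call against bulge was lost on leaving out the bulge array of day 56 (0.73, limma adjusted p = 0.111) or day 69 (adjusted p = 0.0528), or the hair germ array of day 43 (adjusted p = 0.052) or day 56 (adjusted p = 0.0784). The other 3 Kitl probe sets put hair germ above bulge by 0.69 to 0.92, and with all 4 averaged dermal papilla was no longer lower than hair germ by the test (-0.58, limma adjusted p = 0.067).

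Downstream of KIT, 12 of 16 signalling genes on the array were tested. In hair germ against bulge 1 was higher, Spred2 (1.41), which restrains RAS signalling, and 1 lower, Pik3r1 (-1.80), the regulatory subunit of PI3 kinase. Between dermal papilla and bulge, 3 were higher in dermal papilla and 1 lower, led by Spred1 (1.99), Gab1 (-1.68) and Spred2 (1.33). The same counts, 3 and 1, were obtained for dermal papilla against hair germ, led by Pik3r1 (2.38) and Spred1 (1.68). The list's median was -0.10 for hair germ minus bulge and 0.46 for dermal papilla minus bulge, beside 0.11 and -0.05 over all genes tested.

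Edn3, the ligand of EDNRB, was low in the epithelium and highest in dermal papilla on the last day. Dermal papilla signals were 35.2, 62.0 and 256, bulge signals 13.8, 9.86 and 9.16, and hair germ signals 1.81, 18.1 and 3.86. All 3 dermal papilla arrays exceeded the 6 epithelial ones, of which none was above its median. The gene was above the array median only in dermal papilla on days 56 and 69 and so was not in the filtered test. In the fit without the filter dermal papilla exceeded bulge 3.83-fold, a log2 difference of 1.94 ± 0.49 (SE; limma adjusted p = 0.0156), and hair germ by 4.48-fold (limma adjusted p = 0.00786). Within dermal papilla Edn3 was 5.32-fold higher on day 69 than on day 43, a single array against a single array with no test, and 6.33% of all tested genes were at least 2-fold higher on that array. Without the day 69 dermal papilla array the excess over bulge was 1.16. The dimmer second Edn3 probe set read 7.30, 14.2 and 73.0 in dermal papilla. The GAPDH 3'/5' ratio of dermal papilla was 6.62, 4.13 and 3.77 on these days. The median log2 value of the dermal papilla markers there was 8.55, 9.14 and 10.20, and Lef1 read 52.3, 96.5 and 448. Summed keratinocyte marker signals in the same arrays were 1486, 504 and 479. What part these had in the Edn3 values was not tested.

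Ednrb, the receptor, read 40.7, 106 and 107 in dermal papilla, 17.7, 61.1 and 32.9 in hair germ, and 10.9, 13.7 and 8.18 in bulge. Bulge was below both other populations on every array, and hair germ and dermal papilla overlapped. The excess of dermal papilla over bulge was 1.82 ± 0.32 (SE; 95% interval 1.12 to 2.52) log2 units, 3.54-fold (limma adjusted p = 0.000912). Dermal papilla was 1.89-fold above hair germ (limma adjusted p = 0.0402), a call lost in 9 of 17 alternatives, in which adjusted p ran from 0.0153 to 0.243. Hair germ minus bulge was 0.91 and was not called (95% interval 0.21 to 1.60, limma adjusted p = 0.069). The second Ednrb probe set, below every array's median, gave 0.11 for dermal papilla minus bulge and -0.54 for dermal papilla minus hair germ, and so does not show the dermal papilla excess.

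Of 11 other endothelin pathway genes on the array, 5 were tested. Between hair germ and bulge, Ece1, the enzyme that cuts endothelin precursors, was higher (0.83) and Mme, the peptidase neprilysin, lower (-1.93). In dermal papilla against bulge 1 was higher, the G protein subunit gene Gna11 (0.82), and 2 lower, Mme (-2.70) and Plcb3 (-1.16), and against hair germ 2 were lower, Plcb3 (-1.56) and Ece1 (-0.64). The median of the 5 was 0.44 for hair germ minus bulge. Edn2, which was not tested, is named after its values were seen: it read 105, 181 and 30.1 in hair germ and was above the array median only there, on days 43 and 56.

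The 3 days were then compared. With population as a term, 0% of 7786 genes were called by limma for day 69 or for day 56 against day 43, while 565 and 398 had an unadjusted p under 0.05, and no member was called. The largest member values for day 56 minus day 43 were 0.82 for Ednrb, 0.72 for Pmel and 0.64 for Kitl, each with a limma adjusted p of 0.845. Within hair germ, 8 of the 9 members were highest on day 56, with Tyr highest on day 69, whereas 33.8% of tested genes were highest on day 56 there. The member counts include Tyr, Kit and Edn3, which are not among the tested genes, and Edn3 was below the median of every hair germ array. Against day 43 and against day 69, the day 56 value on the pseudocount scale was 2.67-fold and 3.22-fold higher for Tyrp1, 1.83-fold and 2.36-fold for Dct, and 1.77-fold and 2.92-fold for Pmel. For Kit the folds were 1.39 and 2.70, for Kitl 1.76 and 1.70, and for Ednrb 2.29 and 1.58. Each is 1 array against 1 array, with no test. The day 56 hair germ array also had the lowest GAPDH 3'/5' ratio of all 9 (2.97, against 8.34 and 7.90), and its part in this pattern was not tested. In dermal papilla 5 members were highest on day 56 (Tyrp1, Pmel, Mitf, Kit and Kitl), 3 on day 69 and 1 on day 43, beside 32.0%, 35.9% and 32.2% of tested genes. Of these 5, Tyrp1, Pmel and Kit were below the median of every dermal papilla array, and Kit was under the sort gate. Ednrb in dermal papilla was nearly level on days 56 and 69. In bulge 3 members were highest on day 56, 2 on day 69 and 4 on day 43, beside 33.3%, 40.0% and 26.8% of tested genes. There Tyrp1, Tyr, Kit, Edn3 and Ednrb were below the median of every array.

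Within single days, in the order given above, hair germ minus bulge was 4.03, 5.36 and 3.64 for Dct, for Tyrp1 2.99, 4.67 and 3.52, and for Pmel 3.21, 4.13 and 2.15. For Mitf it was -2.49, -2.05 and -1.99, negative on every day. Kitl was less even, at 0.70, 1.75 and 0.88. Dermal papilla minus bulge for Edn3 was 0.78, 1.59 and 3.43, and for Ednrb 1.08, 2.05 and 2.34. Some differences that were not called changed sign between days, among them dermal papilla minus bulge for Kitl (-0.83, 0.75 and -0.33) and Pmel (-1.38, 0.13 and -1.29) and hair germ minus bulge for Edn3 (-0.74, 0.40 and -0.34). Leaving out the 3 arrays with a GAPDH ratio above 6 (a choice made after seeing the data) left 1 hair germ array, and the values were 5.04 for Dct, 4.60 for Tyrp1, 3.78 for Pmel and -2.04 for Mitf, all still called by limma (adjusted p from 0.00229 to 0.00691). Kitl was then at 1.48 and not called (limma adjusted p = 0.0761).

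**Figure D3:**
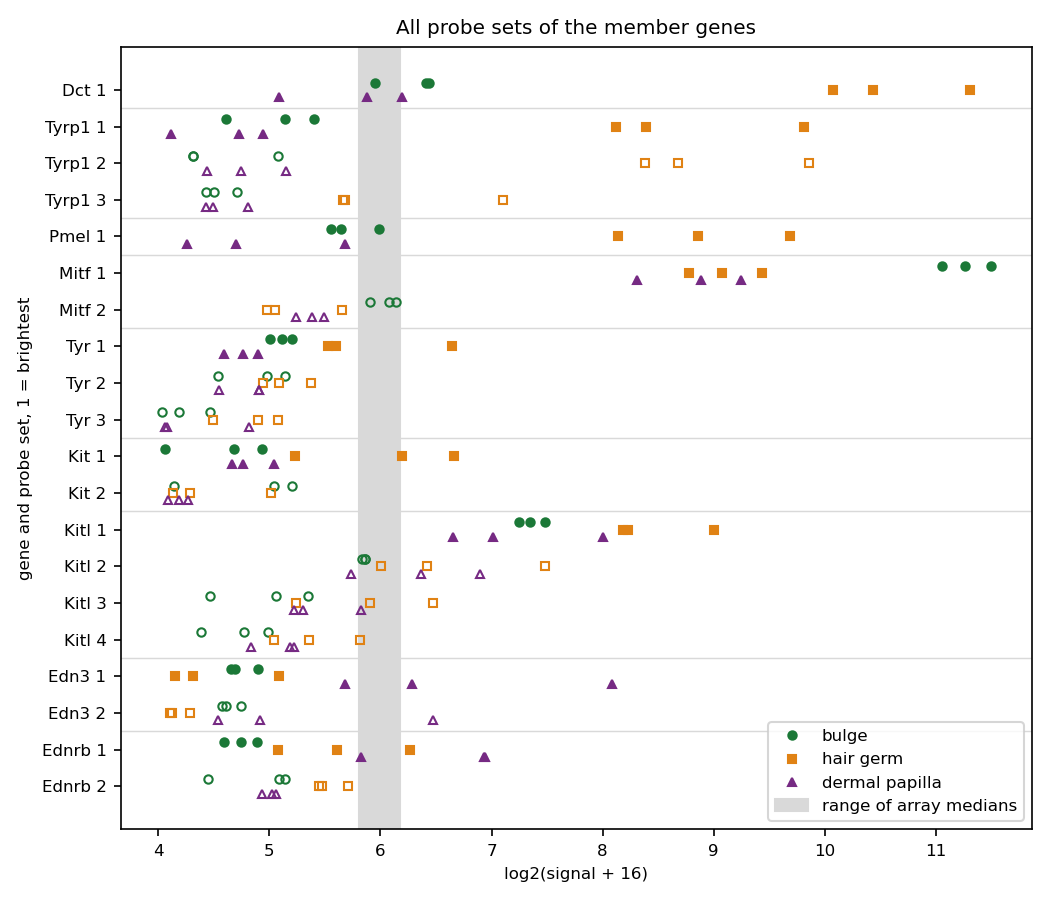
Log2(signal + 16) of all 20 member probe sets, numbered by brightness within each gene, with 3 points per population (1 per array), filled for the brightest probe set, and a grey band over the range of the array medians. Hair germ lies to the right of bulge in all 3 Tyrp1 probe sets (differences of 3.73, 4.40 and 1.60), whereas the 2 Kit probe sets (1.47 and -0.32) point apart.

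Across the 9 arrays the log2 values of Dct, Tyrp1 and Pmel moved together, with Pearson's r of 0.99 for Dct and Tyrp1, 0.96 for Dct and Pmel and 0.97 for Tyrp1 and Pmel. Dct and Mitf had an r of -0.30. Kit and Kitl had an r of 0.80, and Edn3 and Ednrb 0.78. These values describe 9 points that fall into 3 populations and share arrays. The tested genes most like Dct were Tnxb (r = 0.99), Sox6 (0.98) and Calcb (0.98), and those most like Pmel were Birc5 (0.99), Sox6 (0.98) and Slc38a4 (0.98). For Tyrp1 they were Slc38a4, Calcb and Mdm4, each at 0.98. Several of these were dim outside hair germ, with bulge and dermal papilla means of 5.21 and 4.25 for Sox6, 4.52 and 4.53 for Calcb, 5.17 and 4.34 for Slc38a4, and 5.02 and 4.34 for Birc5. Mdm4 was bright in all 3 populations. A gene that passes the filter through hair germ arrays must be bright there, so a high r with Dct, Tyrp1 or Pmel is partly built in. Those most like Mitf were Dnaja2 (1.00), Ank (0.98) and Adamtsl4 (0.98), those most like Kitl were Rabepk (0.97), Orc5 (0.96) and Parl (0.95), and those most like Ednrb were Arhgap31 (0.98), Mfap2 (0.98) and Gsta4 (0.97). Of 7780 other tested genes, 184 (2.37%) had an r above 0.9 with Dct, 149 with Pmel, 121 with Tyrp1, 106 with Mitf, 68 with Ednrb and 23 (0.296%) with Kitl.

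Signals from niche cells to melanocytes outside the KIT and endothelin pathways were counted as well, with 22 of 26 genes on the array and 15 tested. In hair germ against bulge 1 was higher and 5 lower, led by the neurotrophin gene Bdnf (-1.84), the TGF-beta receptor gene Tgfbr1 (-1.43), Nfib (-1.14), a factor that restrains melanocyte stem cells from within the epithelium, and Tgfb2 (-0.92), a TGF-beta ligand gene. In dermal papilla against bulge 7 were higher and 7 lower, led by the hemidesmosomal collagen gene Col17a1 (-7.16), Nfib (-5.09), Corin (4.89), which encodes a protease that limits agouti signalling, and Fgf7 (4.29), a growth factor gene. Against hair germ, 8 were higher in dermal papilla and 5 lower, led by Col17a1 (-7.17) and Erbb3 (-4.88), a neuregulin receptor gene. The list's medians were -0.26, 0.73 and 1.18 in the 3 comparisons, beside 0.11, -0.05 and -0.15 over all genes tested. Markers of other cells that could carry these transcripts were read in the same arrays. Mast cells also express Kit, and of 9 mast cell markers 0 were above the median in any array, with summed signals of 105 to 135 in hair germ, 61.9 to 76.1 in bulge and 86.0 to 96.5 in dermal papilla. Of 8 Schwann cell and neural crest markers, 3 to 4 were above the median in hair germ, 3 in bulge and 4 to 5 in dermal papilla, with summed signals of 1683 to 3039, 2214 to 2393 and 1205 to 1752. Of these, Egr2 was higher (2.03) and Pmp22 lower (-3.07) in hair germ than in bulge, while Fabp7, Gfap and Ngfr did not pass the filter. Of the 5 tested, 2 were higher and 3 lower in dermal papilla than in bulge. Whether cells of these kinds had a part in the member values was not tested. Of 9 leukocyte markers, 1 to 4 were above the median in hair germ, 3 to 4 in bulge and 0 in dermal papilla.

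**Figure D4:**
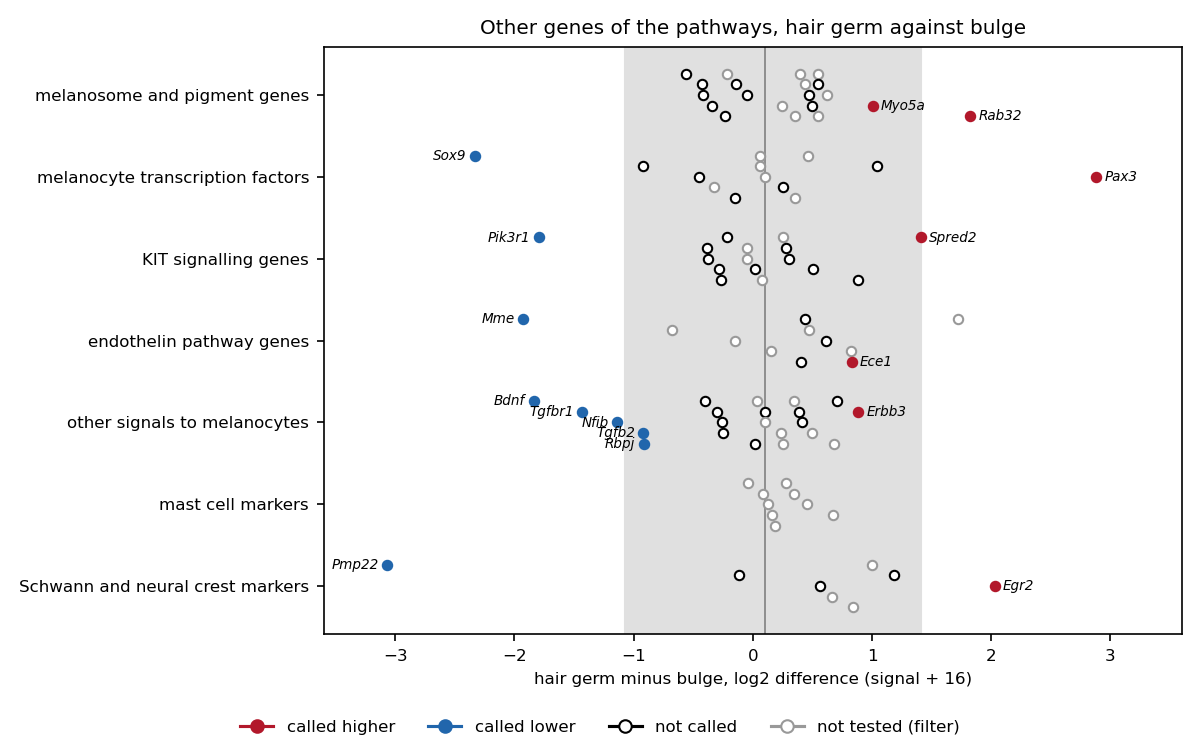
Log2 differences for hair germ minus bulge of the genes of 7 lists, 1 point per gene, filled and named where called by limma, black open where tested and not called, and grey open where not tested. The line is the median of all tested genes (0.11) and the grey band runs from their 5% quantile (-1.07) to their 95% quantile (1.41). Rab32 (1.82), Myo5a (1.00) and Pax3 (2.88) lie to the right, and Sox9 (-2.33) to the left.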

How the data were processed

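Probe set signals of sorted cells were used as deposited: MAS5 probe set intensities on a linear scale, made by the authors with GCOS and MAS5 per the submitters' processing notes, from RNA that was amplified in 2 rounds per the labels' protocols. Versions and the scaling target are not given in the sources used here. Of 22690 probe sets, 64 were controls, 20393 had 1 gene symbol in the platform annotation, 691 several and 1606 none, and 20364 symbols matched the current gene table. Each gene was read from its probe set with the highest mean of log2(signal + 16), and tested if above its own array's median on at least 3 of 9 arrays.

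The test was limma 3.58.1 (R 4.3.3), two-sided, with population plus day on all 9 arrays, leaving 4 residual degrees of freedom, and eBayes moderation along a mean-variance trend. Benjamini-Hochberg adjustment covered all 7786 genes tested, and a gene was called below 0.05. For Tyr, Kit and Edn3, which failed the filter, values come from the same fit to all 12393 genes. P values measure only the spread between these arrays. Fits were tested on simulated data. Members, lists and tests were chosen with earlier results of these data known. Named were all 9 members, up to 4 called genes of each list and comparison by size, or up to 2 where none was called, and the 3 genes most correlated with each tested member. Alternatives were other pseudocounts (1 and 64), scalings, no filter, the mean of a gene's probe sets, no day term, no trend and leaving out each array. Arrays of the same day carry the day as the only shared label, so the day term is part of the design and is not a pairing of mice.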

Additional observations from a re-analysis of the deposited data

How the results depend on the processing

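The number of arrays, 1 for each population and day, limits precision, and many values rest on signals near or below the array median. Among them are those of Tyr, Kit and Edn3, and of Tyrp1 and Pmel in bulge and dermal papilla (Pmel was above it on 1 bulge array). Ednrb was below it in bulge, on 2 of 3 hair germ arrays and in dermal papilla on day 43. Dct was below it in dermal papilla on days 56 and 69. In bulge Dct read 45.8 to 70.5, beside medians of 39.9 to 43.4. The calls for Dct, Tyrp1 and Pmel between hair germ and each other population, and for Mitf between bulge and each other population, held in 18 of 18 alternatives. The Kitl call against bulge held in 13 of 18, and its call between dermal papilla and hair germ in 16 of 18. Ednrb in dermal papilla against bulge held in 17 of 17, and it was not tested with the mean of all probe sets. With that mean, dermal papilla minus bulge for Ednrb was 0.97, beside 1.82 in the main fit. Its dermal papilla minus hair germ difference was then 0.19, beside 0.92. Tyrp1 and Pmel entered the test by being bright in hair germ, and Ednrb by being bright outside bulge. Most alternatives kept the main filter and reused these arrays, so the counts for these genes are not independent support.

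With arrays left out in turn, 783 (without the bulge array of day 43) to 1607 (without the dermal papilla array of day 69) genes were called for hair germ against bulge, beside 1539, and 975 and 862 without the bulge arrays of days 56 and 69. Leaving out the 3 arrays with a GAPDH ratio above 6, chosen after seeing the data, gave 546 there and 1782 for dermal papilla against hair germ, beside 3054. That fit has 1 hair germ array, assumed to vary like the others. With no replicate block (no day term) the counts were 1477 for hair germ against bulge, 2680 for dermal papilla against bulge and 3008 for dermal papilla against hair germ, and the block changed 1 member call, Ednrb in dermal papilla against hair germ (adjusted p = 0.0707 by limma without it).

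All reversals were of values that were not called. Dermal papilla minus bulge became 0.069 for Tyrp1 at a pseudocount of 64, and 0.30 for Kitl with the mean of its probe sets and 0.21 without the high-ratio arrays. Day 69 minus day 43 for Pmel became -0.10 at a pseudocount of 64, -0.014 after quantile normalization, -0.14 after median centring and -0.015 without the high-ratio arrays, and for Kitl -0.0013, -0.067 and -0.41 under the last 3. Without the high-ratio arrays it became -0.19 for Mitf and -0.077 for Ednrb. Day 56 minus day 43 for Dct became -0.037 at a pseudocount of 1, -0.044 after median centring and -0.14 without the high-ratio arrays, where Tyrp1 became -0.18. With arrays left out in turn, dermal papilla minus bulge for Kitl ran from -0.52 to 0.14, day 69 minus day 43 from -0.35 to 0.41 for Pmel and from -0.16 to 0.37 for Kitl, and day 56 minus day 43 for Dct from -0.36 to 0.40. The cause was not tested.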
